A study of Mus musculus with 8 samples.

Results

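Transcript levels of 9 genes whose enzymes or carriers supply acetyl-CoA were examined in the mouse dorsal hippocampus, in mice given a hairpin vector against 1 of them, Acss2. The genes were chosen by their place in the pathway, with earlier results of these data known. They were Acss2 and Acss1 for acetate, Acly and Slc25a1 for citrate, Pdha1, Pdhb and Dlat for pyruvate, and Crat and Acat1 for acetyl-carnitine and thiolase reactions. They are 9 of the 24498 genes in the deposited table, and all 9 passed the filter on low values that left 12681 genes for testing.

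Male C57BL/6J mice aged 10 to 12 weeks received an adeno-associated virus (AAV2/9) in the dorsal hippocampus. The knockdown vector carried a short hairpin RNA against Acss2 under the U6 promoter, which is not restricted to a cell type, and EGFP under the CMV promoter; the control vector carried CMV-driven EGFP and no hairpin cassette, so it does not control for expression of a hairpin as such. At 3 weeks after injection, untrained mice were left in their home cage, whereas the trained ones, after habituation, were exposed to 3 objects placed in an arena during 3 trials that lasted 6 min each, and were killed 30 min after training. Crossing vector and training gave 4 groups (control or knockdown vector, each untrained or trained), with 2 libraries of polyadenylated RNA in each. All mice carried a virus and EGFP, and the labels call the control-vector mice wild type. The labels do not give the share of cells that took up the vector, or the number of mice behind each library; p-values therefore measure only the spread between libraries, which may be technical.

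Histone acetyltransferases take their acetyl groups from acetyl-CoA, which also provides the carbon of fatty acids and sterols. It does not cross the inner mitochondrial membrane by itself. Mitochondria make it from pyruvate through the pyruvate dehydrogenase complex and export its carbon as citrate, which ATP-citrate lyase splits in the cytosol and nucleus to give acetyl-CoA again. Acetyl-CoA synthetases instead ligate free acetate to coenzyme A, ACSS2 in the cytosol and nucleus and ACSS1 in mitochondria. In the series, the question put to these genes is how far the hairpin lowered its target, and whether transcripts of the other routes differed with the vector or with training.

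The 250 bases before the start of transcription are shown for the 4 genes of the acetate and citrate routes, because these are the genes whose levels are set against each other below. They were taken from RefSeq (GRCm38.p6), where 7 of the 9 genes had an entry (not Crat and Acat1). Each is printed 5′ to 3′ on the gene's own strand, and capitals mark a GC box (GGGCGG, or CCGCCC on the other strand) or a CCAAT box (CCAAT, or ATTGG on the other strand). The windows are chr2:155517793-155518042 on the plus strand (Acss2), and on the minus strand chr2:150668241-150668490 (Acss1), chr11:100528001-100528250 (Acly) and chr16:17928220-17928469 (Slc25a1).
Acss2: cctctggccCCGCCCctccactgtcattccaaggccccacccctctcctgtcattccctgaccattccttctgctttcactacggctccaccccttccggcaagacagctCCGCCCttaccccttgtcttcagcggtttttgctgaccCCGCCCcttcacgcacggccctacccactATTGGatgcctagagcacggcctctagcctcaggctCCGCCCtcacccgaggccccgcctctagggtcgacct
Acss1: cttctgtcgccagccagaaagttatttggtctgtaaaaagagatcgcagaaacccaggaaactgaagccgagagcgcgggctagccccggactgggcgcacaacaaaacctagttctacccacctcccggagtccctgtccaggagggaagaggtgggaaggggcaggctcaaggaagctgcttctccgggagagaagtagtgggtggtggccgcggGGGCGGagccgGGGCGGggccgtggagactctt
Acly: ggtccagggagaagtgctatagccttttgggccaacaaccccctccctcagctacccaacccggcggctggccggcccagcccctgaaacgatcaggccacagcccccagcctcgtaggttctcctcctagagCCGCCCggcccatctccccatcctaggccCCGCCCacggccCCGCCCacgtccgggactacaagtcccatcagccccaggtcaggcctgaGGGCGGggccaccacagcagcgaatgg
Slc25a1: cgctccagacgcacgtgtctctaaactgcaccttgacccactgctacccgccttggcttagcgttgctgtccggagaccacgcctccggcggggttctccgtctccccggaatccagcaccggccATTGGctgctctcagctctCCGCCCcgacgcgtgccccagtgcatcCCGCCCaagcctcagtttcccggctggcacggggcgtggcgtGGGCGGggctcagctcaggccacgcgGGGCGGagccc

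The Acss2 window held 4 GC boxes and 1 CCAAT box, the Acss1 window 2 and 0, the Acly window 4 and 0, and the Slc25a1 window 4 and 1. Of the 7 genes with an entry, 6 had at least 1 GC box, the exception being Pdha1, against 32.7% of all 32851 RefSeq promoter windows of the same length. A CCAAT box was present for Acss2, Slc25a1 and Pdhb, against 33.8% of windows. The Pdhb window (chr14:8172993-8173242, minus strand) lies inside the gene span of 8165991 to 8173303. Its GC and CCAAT boxes thus do not lie before the outer start of that gene. The E-box CACGTG was present for Slc25a1 alone, against 6.02% of windows, and the sterol regulatory element spelled TCACNCCAC was found for none of the 7, against 1.05% of windows. Each motif was searched on both strands, and in the 4 windows shown no GC box overlapped a CCAAT box. A match is a run of letters, not a measured binding site.

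Depth bears on every value given here. In 6 libraries the genes held between 6537749 and 9863728 reads, but 1484318 in KD.251 (trained, knockdown vector) and 272456 in KD.255 (untrained, knockdown vector) (libraries are named by vector and the number ending their column name). The authors' values are normalized read counts, in which 1 read was worth 15.6 in KD.255, 2.88 in KD.251 and 0.444 to 0.659 elsewhere. The 9 genes had 1 to 100 reads in KD.255, 16 to 454 in KD.251 and at least 38 in every other library. Each knockdown group thus held 1 deep library (KD.253 untrained, KD.249 trained) and 1 shallow library. Intervals on single libraries are exact Poisson intervals (95%) and cover counting error only, since reads carried no molecular identifiers. In bulk tissue, fewer cells of a type and less RNA per cell cannot be told apart.

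Acss2 was lower in the knockdown libraries. With the control vector its normalized read count was 58.2 in eGFP.254 and 82.0 in eGFP.268, both untrained, and after training 87.4 in eGFP.250 and 67.5 in eGFP.266. In the knockdown libraries it was 25.0 (KD.253) and 15.6 (KD.255) without training, and 25.6 (KD.249) and 57.7 (KD.251) with training. All 4 knockdown libraries lay below all 4 control libraries, but KD.251 came within 1 normalized count of eGFP.254. The means were 73.8 ± 13.4 (SD, n = 4) with the control vector and 31.0 ± 18.4 (SD, n = 4) with the knockdown vector, a knockdown-to-control ratio of 0.420. The two-sided exact permutation test on the means gave p = 0.0286, which is the minimum for 4 libraries set against 4. With trimmed-mean scaling in place of the authors' scaling the ratio was 0.422 and the permutation p was 0.0571, because the groups then overlapped.

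Measured Acss2 levels differed between the hairpin libraries. As a percentage of the control mean, Acss2 stood at 34.0% in KD.253 (24.0% to 46.6%, from 38 reads) and at 34.7% in KD.249 (25.8% to 45.7%, from 50 reads). It stood at 78.2% in KD.251 (47.8% to 121%, from 20 reads) and at 21.1% in KD.255 (0.534% to 117%, from 1 read). The deep libraries thus gave near-equal values. The interval of KD.251 lay just above both of theirs and reached past the control mean, and that of KD.255 ran from near 0 to past the control mean.

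**Figure D1:**
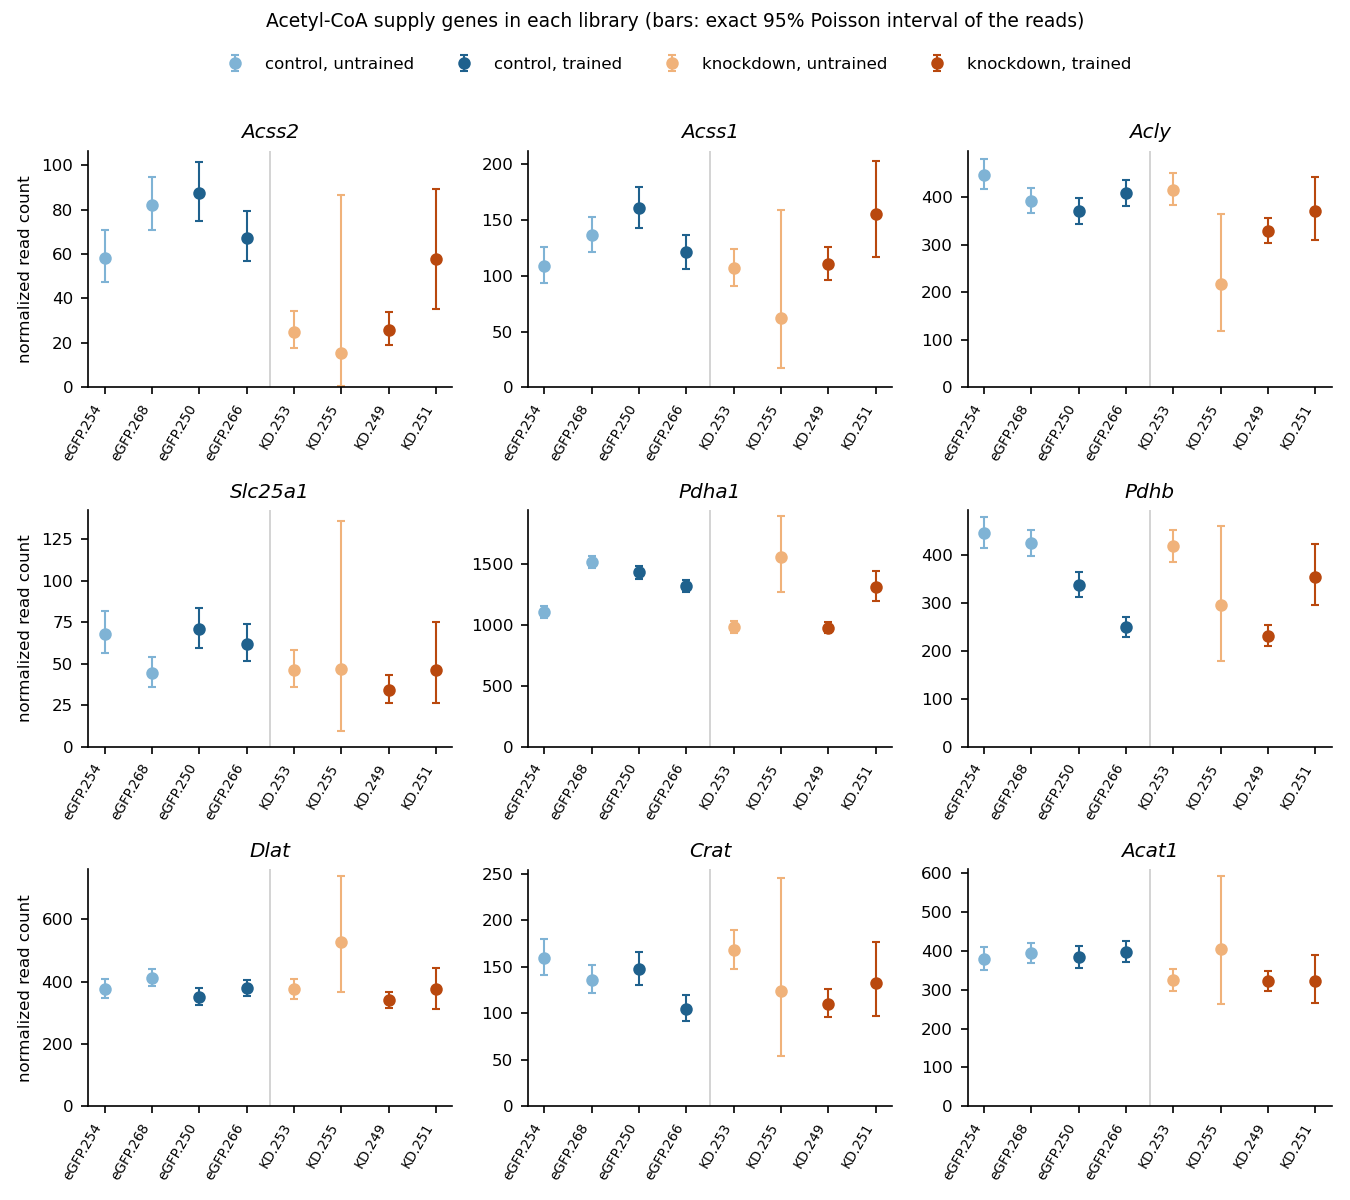
Normalized read counts (vertical axes, each from 0) of the 9 genes in each of the 8 libraries (horizontal axes), coloured by group, with bars for the exact 95% Poisson interval of the reads behind each value. For Acss2 the knockdown libraries span 15.6 to 57.7 and the control libraries 58.2 to 87.4, whereas for each of the other 8 genes the ranges of the vectors overlap.

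Across all tested genes, limma gave Acss2 a log2 difference of -1.37 (SE 0.33, 95% interval -2.11 to -0.62) between the vectors averaged over training, with an adjusted p of 0.333 (unadjusted 0.0023), so the gene did not pass the threshold of 0.05. edgeR's quasi-likelihood test on the recovered reads gave -1.28 with an adjusted p of 0.0835, and DESeq2 gave -1.27 with an adjusted p of 0.0144, which passed. Without KD.251 the limma difference was -1.67 with an adjusted p of 0.0436, and without both shallow libraries it was -1.49 with an adjusted p of 0.0128. Over all the alternatives tried, the difference ranged from -1.67 to -1.16 and its adjusted p from 0.0128 to 0.962. The negative sign was the same in all 16.

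The Acss2 locus lies on chromosome 2 from 155518043 to 155562743 on the plus strand (GRCm38.p6, RefSeq). Its longest GENCODE M21 transcript with a RefSeq mRNA entry has 18 exons and 2931 bases. The wider GENCODE M21 model runs from 155517948 to 155585724 and overlaps the minus-strand genes Gss and Ggt7, and the strand setting of the counting is not given in the sources used here. Gss, which encodes glutathione synthetase, lay between 57.3 and 75.0 in all 8 libraries, with a log2 difference of 0.05 (95% interval -0.35 to 0.46) between the vectors. Ggt7, a gamma-glutamyltransferase family gene, differed by -0.003. The antisense gene Acss2os had 1 read in eGFP.250 and 0 reads elsewhere.

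Acss1, the mitochondrial acetyl-CoA synthetase (chromosome 2, 150618111 to 150668240, minus strand), showed no such separation. Its values were 109 and 137 in the untrained control, 161 and 121 in the trained control, 107 and 62.2 in the untrained knockdown and 111 and 156 in the trained knockdown libraries. The lowest value, in KD.255, rested on 4 reads, and the knockdown range of 62.2 to 156 enclosed most of the control range of 109 to 161. The log2 difference between the vectors was -0.33 (95% interval -0.86 to 0.19), and the adjusted limma p was above the threshold. Without KD.255 the difference was -0.13 (95% interval -0.56 to 0.30), and without eGFP.268 it was -0.22.

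Because both synthetases were counted in the same library, the share of Acss2 among their summed reads does not depend on the scaling between libraries; the share was chosen after the values were seen, and no test is given. Acss2 made up 34.8% (eGFP.254), 37.5% (eGFP.268), 35.2% (eGFP.250) and 35.8% (eGFP.266) of these reads with the control vector, a mean of 35.8% ± 1.19 (SD, n = 4). With the knockdown vector it made up 19.0% in KD.253 (exact binomial interval 13.8% to 25.1%) and 18.8% in KD.249 (14.3% to 24.0%). In KD.251 the share was 27.03% (17.4% to 38.6%, from 74 reads), and in KD.255 it was 20.0% (0.505% to 71.6%, from 5 reads). The mean with the knockdown vector was 21.2% ± 3.92 (SD, n = 4), and the ranges of the vectors did not overlap. The intervals of both shallow libraries, unlike those of the deep ones, reached the control values.

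**Figure D2:**
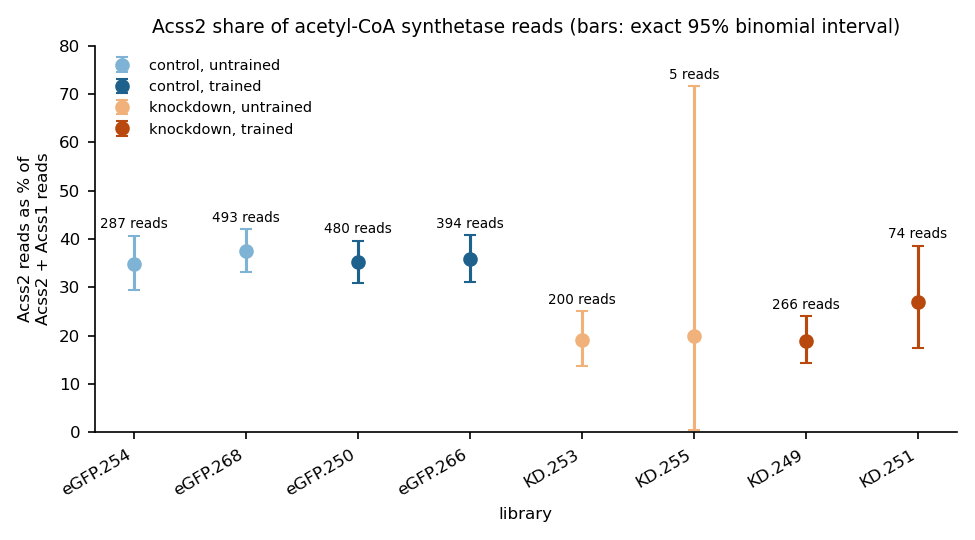
Acss2 reads as a percentage of Acss2 plus Acss1 reads (vertical axis, from 0) in each library (horizontal axis), with bars for the exact 95% binomial interval and the number of reads above each bar. The control libraries sit between 34.8% and 37.5%, KD.253 and KD.249 at 19.0% and 18.8%, and the shallow KD.251 and KD.255 have wide intervals.

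The citrate route showed lower means with the knockdown vector that were within the spread of the libraries. Slc25a1, the mitochondrial citrate carrier (chromosome 16, 17925211 to 17928219, minus strand), stood at 68.0 and 44.4 in the untrained control, 70.8 and 62.2 in the trained control, 46.1 and 46.7 in the untrained knockdown and 34.3 and 46.2 in the trained knockdown libraries. Only the control library eGFP.268, at 44.4, lay among the knockdown values. The log2 difference between the vectors was -0.48 (SE 0.24, 95% interval -1.02 to 0.06) with a limma adjusted p of 0.873 (unadjusted 0.0744). After training it was -0.72 (95% interval -1.52 to 0.07), also short of the threshold.

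Acly, the ATP-citrate lyase that releases acetyl-CoA from citrate outside mitochondria (chromosome 11, 100476352 to 100528000, minus strand), stood at 448 and 393 in the untrained control and 370 and 409 in the trained control libraries. It stood at 417 and 218 in the untrained knockdown and at 329 and 372 in the trained knockdown libraries. The low value of 218 belonged to KD.255 and rested on 14 reads, with an interval of 119 to 365. Between the vectors the log2 difference was -0.31 (95% interval -0.76 to 0.14), and the ranges overlapped. It was -0.095 without KD.255 and -0.12 without both shallow libraries.

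The 3 genes of the pyruvate dehydrogenase complex overlapped between the vectors. Pdha1, the E1 alpha subunit (chromosome X, 160122219 to 160138430, minus strand), stood at 1104 and 1511 in the untrained control, 1430 and 1316 in the trained control, 981 and 1555 in the untrained knockdown and 975 and 1310 in the trained knockdown libraries. Both deep knockdown libraries, 981 and 975, lay below all controls, while KD.255 held the highest value of the 8. The log2 difference between the vectors was -0.17 (95% interval -0.58 to 0.24). It was -0.33 without KD.255, -0.28 without eGFP.254, -0.44 (95% interval -0.83 to -0.06, adjusted p 0.406) without both shallow libraries, and nearer to 0 without KD.253 (-0.06), KD.249 (-0.07) or eGFP.268 (-0.10). Pdha2, an intronless copy of Pdha1 that is expressed in testis, had 1 read in eGFP.250 and 0 reads elsewhere.

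Pdhb, the E1 beta subunit (chromosome 14, 8165991 to 8173303, minus strand), stood at 446 and 424 in the untrained control and 337 and 249.2 in the trained control libraries. With the knockdown vector it stood at 418 and 295 without training and at 231 and 355 with training. The vectors overlapped, with a log2 difference of -0.16 (-0.034 without KD.255 and -0.32 without KD.251), and the training difference of this gene is given below with the other training comparisons. Dlat, the E2 acetyltransferase subunit (chromosome 9, 50634633 to 50659780, minus strand), ranged from 351 to 412 in the control and from 341 to 529 in the knockdown libraries. Its highest value, 529, came from 34 reads in KD.255, and the other 3 knockdown libraries lay between 341 and 376. The log2 difference was 0.07 and became -0.04 without KD.255, so Dlat has no settled direction.

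Crat, the carnitine acetyltransferase that interconverts acetyl-CoA and acetyl-carnitine (chromosome 2, 30400476 to 30416017, minus strand), ranged from 105 to 160 in the control and from 110 to 168 in the knockdown libraries. Its log2 difference of -0.03 between the vectors turned to small positive values under edgeR, DESeq2 and several left-out libraries. Acat1, the mitochondrial acetoacetyl-CoA thiolase (chromosome 9, 53580522 to 53610350, minus strand), stood at 379 and 393 in the untrained control, 383 and 398 in the trained control, 324 and 404 in the untrained knockdown and 321 and 323 in the trained knockdown libraries. The controls spanned 379 to 398, and 3 of the 4 knockdown libraries lay between 321 and 324, below all of them. The fourth, KD.255 at 404 from 26 reads, lay above all of them with an interval of 264 to 592. The log2 difference of Acat1 between the vectors was -0.19 (95% interval -0.47 to 0.10).

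Of the 9 genes, 8 had a lower and 1 a higher mean log2 value with the knockdown vector, and limma called 0 of them (0.103% of all tested genes were called). At an unadjusted p under 0.05 limma had 1 of 9, Acss2, against 5.59% of all genes. edgeR called 0 of 9 (0.962% of all genes) and DESeq2 called 1 of 9, Acss2 (1.54% of all genes). The median log2 difference of the 9 was -0.19, against -0.03 over all tested genes, of which 55.7% were lower. Acss2 was the only one of the 9 in which all 4 knockdown libraries lay below all 4 controls, as did 1.98% of all tested genes, and none of the 9 lay the other way (2.28% of all genes). For Acss2, Pdha1 and Acat1, 3 of the 9, both deep knockdown libraries lay below all controls, which held for 9.57% of all genes.

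Split by training state, the Acss2 difference was -1.76 (SE 0.47) in untrained mice with a limma adjusted p of 0.798. It was -0.98 (SE 0.47, 95% interval -2.04 to 0.08) in trained mice with a limma adjusted p of 1.00. Among trained mice it was -1.55 without KD.251 and -0.41 without KD.249, so the value depends on which of the pair is read. In untrained mice limma called 0 of the 9 genes (0.0% of all genes), with 1 at an unadjusted p under 0.05 (4.5% of all genes), edgeR called 0 (0.181%) and DESeq2 called 0 (0.434%). In trained mice all 9 were lower and limma called 0 (0.00789% of all genes), with 0 at an unadjusted p under 0.05 (2.36%), edgeR called 0 (0.0315%) and DESeq2 called 0 (0.26%). Without KD.253 limma called Acly and Acss2 in untrained mice, and 1279 genes in all, with KD.255 as the lone knockdown library, assumed to vary like the other groups.

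**Figure D3:**
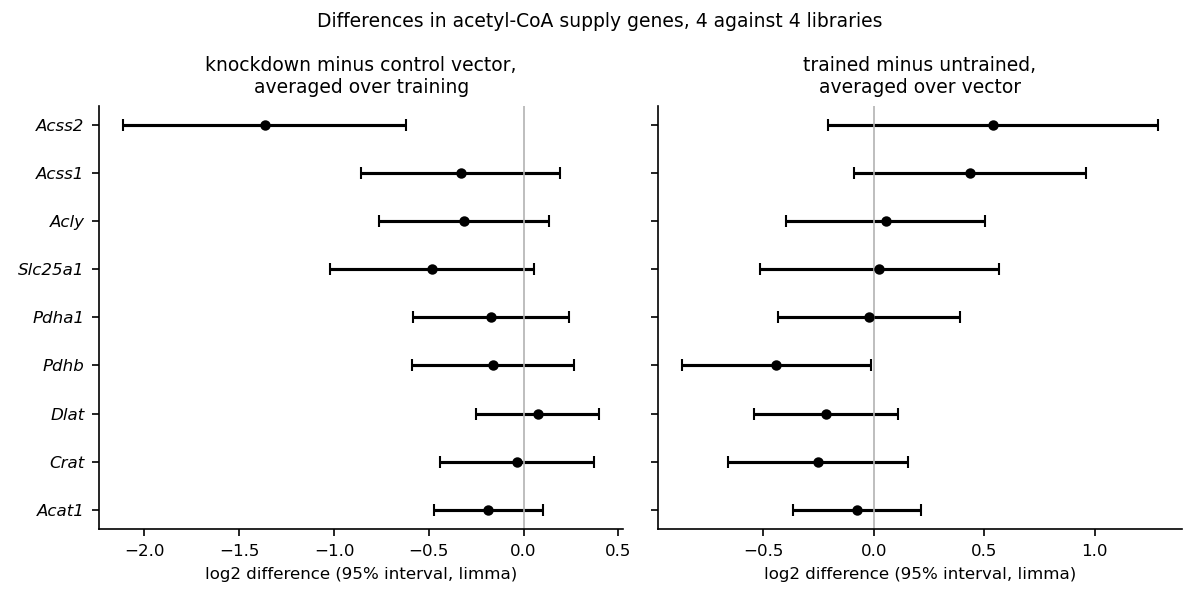
Log2 differences (horizontal axes, limma, with 95% intervals) of the 9 genes (vertical axes) between the vectors averaged over training and between training states averaged over vectors, each from 4 against 4 libraries. Acss2 at -1.37 has the interval farthest from 0 in the vector comparison; in the training comparison Pdhb at -0.44 alone has an interval that excludes 0, and neither passed the adjusted threshold.

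Transcript levels per length ordered the 9 genes in the control libraries, as the authors' normalized read count per kilobase of transcript. The length was that of the gene's longest GENCODE M21 transcript with a RefSeq mRNA entry. Pdha1 led at 471 ± 62.0 (SD, n = 4, as for all of these levels), followed by Pdhb at 241 ± 59.4 and Acat1 at 114 ± 2.57. Each of these stood clear of the next gene in the order, with no overlap of the control values. Dlat at 94.1 ± 6.19 and Acly at 91.5 ± 7.39 overlapped each other. Slc25a1 at 36.8 ± 7.14, Acss1 at 36.4 ± 6.20, Crat at 35.8 ± 6.16 and Acss2 at 25.2 ± 4.57 formed the lowest group, in which each gene overlapped the next.

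Acss2 was thus the lowest of the 9 per length in 3 of the 4 control libraries, the exception being eGFP.268, where Slc25a1 was lower. With the knockdown vector its level per kilobase was 10.6 ± 6.28 (SD, n = 4), and it was the lowest of the 9 in all 4 libraries. Pdha1 and Pdhb kept first and second place in all 8 libraries. The order compares transcripts, whose counted length may differ from the GENCODE length used here.

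**Figure D4:**
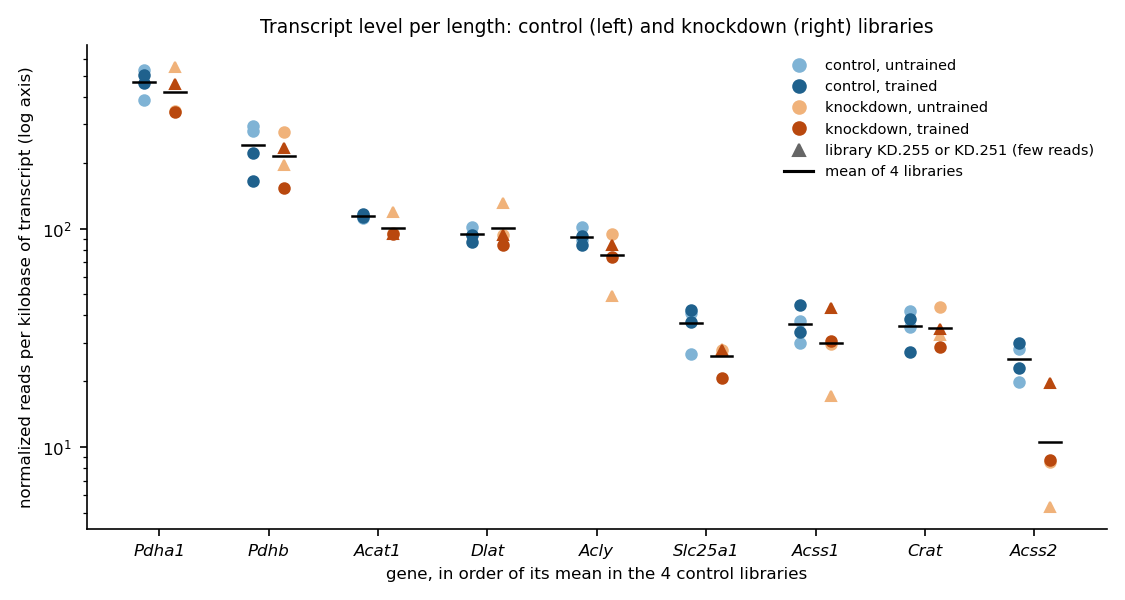
Normalized reads per kilobase of transcript (vertical axis, log scale) of the 9 genes in order of their control mean (horizontal axis), with control libraries to the left and knockdown libraries to the right of each position; lines are means of 4 libraries and triangles the shallow libraries KD.255 and KD.251. The order runs from Pdha1 at 471 to Acss2 at 25.2 in controls, and Acss2 is the gene whose knockdown points (mean 10.6) lie lowest.

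Training gave no called difference in these genes. With the control vector, 5 of the 9 were higher and 4 lower, and limma called 0 (0.0% of all genes), with 0 at an unadjusted p under 0.05 (1.43%), edgeR called 0 (0.0%) and DESeq2 called 0 (0.0315%). With the knockdown vector, 3 were higher and 6 lower, and limma called 0 (0.0%), with 0 at an unadjusted p under 0.05 (4.48%), and edgeR and DESeq2 called 0 each (0.0% by each). For the difference between the training responses of the vectors, limma, edgeR and DESeq2 each called 0 (0.0% of all genes by each), with 0 at an unadjusted limma p under 0.05 (0.883%). Averaged over the vectors, limma called 0 of 9 (0.0%), with 1 at an unadjusted p under 0.05 (4.86%), edgeR called 0 (0.0%) and DESeq2 called 0 (0.0946%). In this comparison DESeq2 gave an adjusted p to 8010 of the 12681 genes only. Acss2 and Slc25a1 were not among them and so could not be called by it.

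For Acss2 the training difference was 0.15 on the log2 scale (95% interval -0.91 to 1.21) with the control vector and 0.93 (95% interval -0.13 to 1.99) with the knockdown vector. The second value sets KD.251, at 57.7, and KD.249 against an untrained pair that holds the 1-read library KD.255. The difference between these responses was 0.78 (95% interval -0.72 to 2.28) and became -0.12 without both shallow libraries. With the control vector the difference became -0.03 without eGFP.250 and -0.09 without eGFP.254, so no direction of a training response is given for Acss2. Acss1 differed by 0.44 (95% interval -0.09 to 0.96) averaged over the vectors.

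Pdhb had the smallest unadjusted p of the 9 in the training comparison. Its mean was 293 in the 4 trained and 396 in the 4 untrained libraries, and the log2 difference averaged over the vectors was -0.44 (SE 0.19, 95% interval -0.87 to -0.01). The adjusted p was 0.873 in limma, 0.717 in edgeR and 0.495 in DESeq2, with an unadjusted limma p of 0.0454. With the control vector the untrained libraries (446 and 424) lay above the trained ones (337 and 249.2), and with the knockdown vector the untrained values (418 and 295) and trained values (231 and 355) overlapped. None of the 9 genes had all trained libraries below all untrained ones (1.62% of all genes) or above them (1.65%).

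The other genes around these routes were taken from 7 lists with 76 genes, of which 71 were tested; Acss3, Acot12, Slc16a3, Acads and Acat3 fell under the filter. None of the 71 was called in any of the 7 comparisons by limma, edgeR or DESeq2. Between the vectors 23 were higher and 48 lower, with a median log2 difference of -0.15 against -0.03 over all genes. At an unadjusted p under 0.05 limma had 2 of 71, Aspa and Idh1, against 5.59% of all genes, so the count is no result about these lists. Aspa, the aspartoacylase that releases acetate from N-acetylaspartate in oligodendrocytes, differed by 0.57 (unadjusted p 0.034). Its values ran from 46.1 to 97.6 in the control and from 81.9 to 107 in the knockdown libraries. Idh1, the cytosolic isocitrate dehydrogenase, differed by -0.58 (unadjusted p 0.030), with values of 131 to 241 in the control and 88.0 to 144 in the knockdown libraries.

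By list, the genes of acetate sources and handling had 5 higher and 4 lower of 9 tested (median 0.004), led by Aspa, the mitochondrial deacetylase Sirt3 at -0.46 and the monocarboxylate carrier Slc16a1 at 0.19. Pyruvate entry and pyruvate dehydrogenase control had 5 higher and 8 lower (median -0.06), with lactate dehydrogenase A (Ldha) at -0.44, the inhibitory kinase Pdk2 at -0.38 and Pdpr, which regulates the activating phosphatase, at 0.29. Citrate formation and use had 3 higher and 11 lower (median -0.19), with Idh1 and pyruvate carboxylase (Pcx) at 0.32. Fatty acid oxidation and carnitine carriers had 4 higher and 10 lower (median -0.15), with the acyltransferase Crot at 0.31 and the thiolase Acaa2 at -0.62. Ketone body genes had 0 higher and 5 lower (median -0.29), among them Oxct1 at -0.25. The genes that use acetyl-CoA for lipids had 1 higher and 7 lower (median -0.29), with Hmgcs1 at -0.64, Fasn at -0.24 and Acaca at -0.35. Coenzyme A synthesis had 5 higher and 3 lower (median 0.04), with the pantothenate kinase genes Pank4 at 0.26 and Pank3 at 0.22 and Coasy at -0.42. None of these named genes passed the threshold. The carnitine carrier Slc25a20 and the cytosolic thiolase Acat2 also ranked among the first of their lists. Both had 0 reads in KD.255, where 3 reads are worth 46.7 normalized counts. Acat2 may also share reads with its near-identical copy Acat3. For these reasons the fitted differences of Slc25a20 and Acat2 are not read.

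The genes most like Acss2 across libraries were found by Pearson's r of log2(normalized read count + 1) over the 8 libraries, among 12680 genes. They were Sqle at 0.977, Upp2 at 0.976, Kcnip1 at 0.973, Slc23a2 at 0.970 and Rab26 at 0.967. These encode squalene epoxidase of sterol synthesis, a uridine phosphorylase, a potassium channel interacting protein, an ascorbate transporter and a small GTPase. Sqle stood at 147 to 173 in the control libraries, at 84.4 in KD.253, 46.7 in KD.255, 72.7 in KD.249 and 153 in KD.251. Like Acss2, it was low in both deep knockdown libraries and near the controls in KD.251. In KD.255 Upp2 and Kcnip1 stood at 15.6, the worth of 1 read. All points share the libraries' depth and scaling, and the coefficients are descriptions.

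Without both shallow libraries, none of the 5 stayed among the first 5, which became Msmo1 (0.995), 6430573F11Rik, Stard4 (0.9895), 2900052N01Rik and D17Wsu92e. Among 12720 genes Kcnip1 then ranked 7, Sqle 17, Rab26 20, Slc23a2 40 and Upp2 50. Msmo1 is an enzyme of sterol synthesis and Stard4 a sterol carrier. Msmo1 stood at 351 to 579 in the control libraries, at 163 and 169 in the deep knockdown libraries KD.253 and KD.249 and at 560 in KD.251, which was left out of that ranking. Among the other 8 genes of acetyl-CoA supply, Acss1 was the most like Acss2 over 8 libraries (r = 0.838, rank 172) and Dlat the least (r = -0.474, rank 10667). Over the 6 deep libraries Acat1 was the most like Acss2 (r = 0.959, rank 54) and Acss1 ranked 1030, so the order among the 8 depended on the shallow libraries.

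Values of 3 further gene lists are given because Acss2 is read in the same libraries. The lists were chosen with earlier results of these data known, so their counts are descriptions and no test of the lists. The 10 interferon response genes had a median log2 difference from the control mean of 4.56 in KD.253, 3.88 in KD.255, 4.81 in KD.249 and 2.33 in KD.251. With the knockdown vector limma called 7 of the 10 higher, edgeR 9 and DESeq2 9. Of all tested genes limma called 0.103%, edgeR 0.962% and DESeq2 1.54%. All 10 were higher under every setting run, but the limma count varied, as did the number called among all genes. It was 10 of 215 called genes without both shallow libraries and 9 of 102 without KD.251. It was 5 of 9 without eGFP.266 and 4 of 9 without KD.255. Without KD.249, KD.253 or eGFP.254 it was 1 of 2 each time, and without eGFP.250 or eGFP.268 it was 0 of 1. A term that sets the 6 lower library numbers against the 2 higher, chosen after seeing the data, left 0 called among all genes. The 2 higher, eGFP.266 and eGFP.268, are both control libraries, so that term is partly confounded with the vector. The 14 sterol synthesis genes stood at -0.92, -0.73, -0.93 and 0.05 in the same libraries, and 13 of 14 were lower, with 0 called by limma and 1 each by edgeR and DESeq2. Without both shallow libraries, where limma called 215 of 12721 genes in all, it called 4 of them lower. The 10 microglia markers stood at 0.88, 0.84, 0.75 and 0.36, and 10 of 10 were higher, with 0 called by limma, 2 by edgeR and 4 by DESeq2. Without both shallow libraries limma called 3 of them. In KD.251 the interferon and microglia medians were thus the smallest of the 4 knockdown libraries, the sterol median was near 0 and Acss2 was nearest to the controls. The median of the other 8 acetyl-CoA supply genes was -0.14, -0.19, -0.30 and -0.03 in these libraries. The part of these lists in the levels of Acss2 was not tested.

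Marker lists of cell types, with 10 genes each, are given as values beside the members. None of the lists marks the hippocampus or its dorsal part, so they do not test the tissue label. Neuron markers were present in every library, with summed levels of 59833 to 81460, and 8 of 10 were lower with the knockdown vector (median -0.16, against -1.37 for Acss2). Astrocyte and endothelial markers had medians of 0.01 and -0.04 between the vectors, and oligodendrocyte markers 0.24 between the vectors and 0.63 between training states. Choroid plexus markers, which are not hippocampal, summed to between 725 and 72244 normalized counts, highest in the control libraries eGFP.250 (72244) and eGFP.254 (18780), with 5 of 10 at 0 in KD.255. The control libraries eGFP.268 (725) and eGFP.266 (2001) did not stand apart from the knockdown libraries, whose sums were 1316 to 3545. Between the vectors their median was -2.07 with 10 of 10 lower, a larger difference than that of Acss2, but it rests on eGFP.250 and eGFP.254. Between training states the median of these markers was 1.18 with 10 of 10 higher. In both comparisons limma, edgeR and DESeq2 called 0 of them. Their part in the members' values was not tested.

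**Figure D5:**
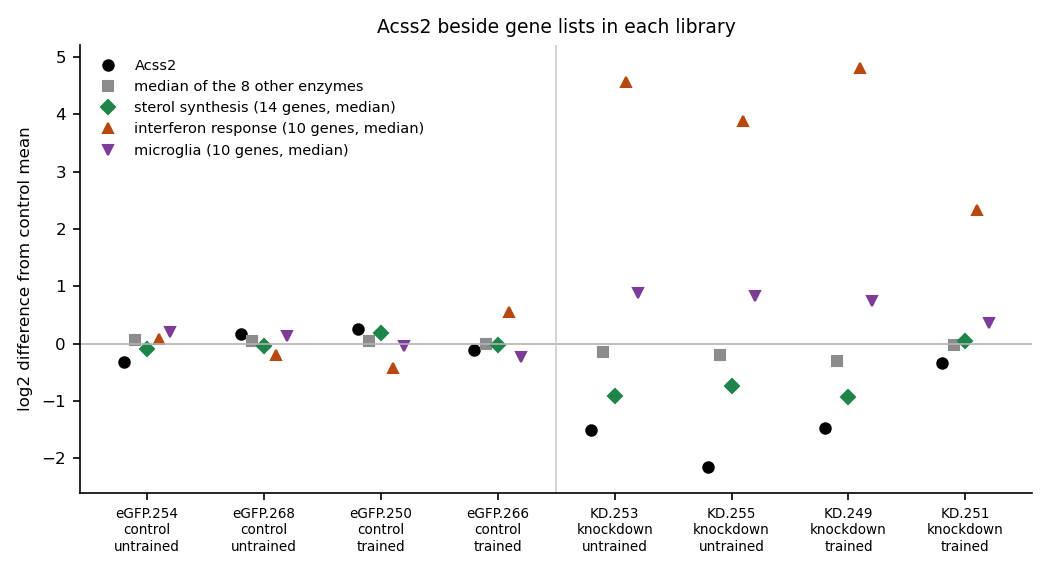
Log2 difference from the control mean (vertical axis) in each library (horizontal axis, with its group) for Acss2, the median of the other 8 acetyl-CoA supply genes and the medians of the interferon response, sterol synthesis and microglia lists. The interferon median is 2.33 to 4.81 in the knockdown libraries, the sterol median is -0.92 and -0.93 in KD.253 and KD.249 and 0.05 in KD.251, and Acss2 in KD.251 lies nearer to the controls than in the other 3.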

How the data were processed

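Polyadenylated RNA of 8 libraries in 4 groups was measured. Per the submitters' processing notes, the tools were bcl2fastq 02.14.01.07, STAR 2.3.0, HTSeq 0.6.1, DESeq and bedtools, with build mm10. Gene annotation and strand setting: not given in the sources used here. For each gene and library, the authors deposited 1 normalized signal value. In each library 100% of values were whole multiples of the smallest (tolerance 1e-06), so reads could be recovered. Counter summary entries (5), 34.5% to 39.5% of each library's reads in the table, were left out.

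Genes with a mean of at least 10 were tested in R 4.3.3 with limma 3.58.1 (trended prior) on log2 values, computed here from the deposited signal after adding 1. The 4 groups shared 1 spread (4 residual degrees of freedom, 5.13 from the prior; 5 and 4.71 in the additive model). The Benjamini-Hochberg threshold was 0.05 over all tested genes in each of 7 comparisons. edgeR 4.0.16 and DESeq2 1.42.0 were run on recovered reads as alternatives. Fits were tested on simulated data. For genes with few reads, the log2 scale with 1 added can understate differences, or overstate them where KD.255 has 0 or 1 read. Acss2, with 1 read there, was at -1.37 in limma, against -1.28 in edgeR and -1.27 in DESeq2. The genes and lists were chosen with earlier results of these data known. By rule, all 9 genes are named, and of each list any called gene, otherwise the 3 with the smallest p between vectors. Some genes that this rule names are not reported here.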

Additional observations from a re-analysis of the deposited data

Results flagged for a closer look

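In 2 of 18 groups of 4 libraries tested with Dixon's ratio (each of the 9 genes within each vector, training states together), 1 library stood apart from the other 3, and chance flags about 1 in 20 groups. Slc25a1 stood at 34.3 normalized read counts in the trained knockdown library KD.249, against 46.1 to 46.7 in the other knockdown libraries. Acat1 stood at 404 in the untrained knockdown library KD.255, from 26 reads, against 321 to 324 in the others.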

How the results depend on the processing

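No paired analysis was possible because the columns carry no replicate number that the labels tie to a sample, so the fit with a replicate block was not run. Of 379 recomputed values, 348 kept their direction and their side of the threshold (or moved within the set limits). Averaged over training, the number of the 9 genes called between the vectors was 0, but 1 (Acss2) with DESeq2 and 1 without both shallow libraries (215 genes called in all), and 0 to 1 when 1 library was left out (1 without KD.251, 102 genes in all). In untrained mice it was 0 to 2 (2 without KD.253). For Acss2 averaged over training, the log2 difference was -1.27 with DESeq2 and -1.49 without both shallow libraries (both past the threshold), and -1.67 to -1.16 when 1 library was left out. In untrained mice it was -2.08 to -1.43 and in trained mice -1.55 to -0.41. The training difference of Acss2 with the control vector was -0.095 to 0.39 when 1 library was left out, negative without eGFP.250 (-0.034) and eGFP.254 (-0.095). The difference of responses became -0.12 without both shallow libraries and was 0.21 to 1.35 when 1 was left out. The Acss2 ratio was 0.422 (permutation p 0.0571) with trimmed-mean scaling, 0.343 without both shallow libraries (p 0.133, the smallest possible) and 0.299 to 0.490 when 1 library was left out (p 0.0571, the smallest possible). Between the vectors, Dlat became -0.045 without KD.255 and -0.083 without both shallow libraries, and was -0.045 to 0.15 when 1 library was left out. Acss1, Acly, Pdha1 and Pdhb stayed negative in every setting, but moved by over 1.5 times without KD.255 and for some with other libraries left out (values in the report). Crat became 0.0087 with edgeR, 0.0051 with DESeq2 and 0.0062 without both shallow libraries, and was -0.13 to 0.064 when 1 library was left out (positive without KD.249, KD.255, eGFP.250 or eGFP.254). Of the 5 genes most like Acss2, 0 stayed among the first 5 without both shallow libraries, where they ranked 7 to 50 of 12720. With a term for the set of library numbers (6 lower, 2 higher), chosen after seeing the data, Acss2 was at -1.34 with an adjusted limma p of 0.804. The 2 higher numbers, eGFP.266 and eGFP.268, are both control libraries, so this term is partly confounded with the vector. Fewer libraries and fewer reads differ between these settings together, and the cause of each change was not tested. Depth limits all values of KD.255, where 3 reads are worth 46.7 normalized counts.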
